A study of Mus musculus with 2 samples.

Results

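Keratin-associated protein (KAP) genes are the genes whose symbol starts with Krtap, and 57 of the 32285 listed mouse genes met that rule. A member was counted as detected when it had at least 10 unique molecular identifiers (UMIs, which count captured RNA molecules) in each library, summed over droplets with at least 2000 UMIs, and 10 of the 57 were. The study profiled single epithelial cells of back skin at postnatal day 1 to ask what PADI4, an enzyme that converts arginine to citrulline in proteins, does in the developing hair follicle. It made 1 droplet library of PADI4 WT skin and 1 of PADI4 cKO skin, in which Padi4 fl/fl alleles meet a Cre driven by the keratin 14 promoter, active in basal keratinocytes. In both, the epidermis was peeled off and the tdTomato+ cells of the dermal and follicle fraction were sorted, tdTomato marking cells that carry the Ai14 reporter and have met Cre. The labels give the genotype of the control as WT only, while their extraction protocol names K14-Cre and Padi4 fl/fl for both libraries. Which Padi4 alleles the control carried is therefore not settled by the labels. The number and sex of the mice in each library are not given in the sources used here.

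KAPs fill the space between the keratin intermediate filaments of the hair shaft and are cross-linked to them, largely through disulfide bonds, which gives hair its strength. The family is divided into high sulfur, ultra-high sulfur and high glycine-tyrosine proteins, and its small genes sit in clusters on a few chromosomes. In the growing follicle they are known as late genes, switched on in the shaft cuticle, cortex and medulla after the first hair keratins.

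The PADI4 WT library held 143938990 UMIs, of which 93.0% were in 8785 droplets with at least 2000 UMIs, and the PADI4 cKO library held 143945294, with 93.6% in 7882 droplets. After the filters described below, 8070 and 7393 cells remained, with a median of 14670 and 16208 UMIs, and the libraries had 14 barcodes in common. Among epithelial cells, Padi4 had 98 UMIs (0.770 CPM, UMIs per 1000000 UMIs) in the PADI4 WT library and 92 (0.711 CPM) in the other, a log2 ratio of -0.12 (95% interval -0.54 to 0.31). Padi4 counts therefore did not set the libraries apart. Counts at the 3′ end may lie outside the part that Cre removes, which is not given in the sources used here, so that they check neither the deletion nor the labels. The second is called the library labelled PADI4 cKO throughout. Cells of both sexes were present in 1 library only. Xist, a transcript of the inactive X chromosome, was found without any Y-linked UMI in 26.7% of epithelial cells in PADI4 WT and in 99.7% of those in the library labelled PADI4 cKO. Y-linked UMIs without Xist were found in 59.8% and in 0 of them. With 1 library per genotype, no test between genotypes was possible. Every interval below is a 95% interval that covers counting error only, and genotype, sex, mouse and library cannot be told apart.

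Expression of the family was carried by very few members. In droplets with at least 2000 UMIs the 57 genes had 6388 UMIs in PADI4 WT and 7499 in the library labelled PADI4 cKO, and Krtap17-1 and Krtap8-1 together held 91.9% and 94.2% of them. Krtap17-1, an ultra-high sulfur member, had 4574 and 6265 UMIs (34.2 and 46.5 CPM). Krtap8-1, of the high glycine-tyrosine type, had 1298 and 798 (9.69 and 5.92 CPM). These were the highest members in both libraries, and the first was higher and the second lower in the library labelled PADI4 cKO.

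The other 8 detected genes were low. Krtap3-3, of the high sulfur type, had 223 UMIs in each library. Krtap7-1, of the high glycine-tyrosine type, had 109 and 47. The high sulfur members Krtap13-1 (43 and 34), Krtap15 (33 and 38), Krtap11-1 (24 and 16), Krtap14 (11 and 15) and Krtap10-10 (11 and 14) and the high glycine-tyrosine member Krtap19-4 (21 and 27) followed. By their UMIs in both libraries together, Krtap10-10, Krtap14 and Krtap11-1 were the nearest above the limit. Krtap12-1 (6 and 7 UMIs) and Krtap4-2 (5 and 1) were the nearest below it, followed by Krtap3-2 (4 and 1), Krtap16-3 (3 and 2) and Krtap4-7 (3 and 2), which had equal sums.

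**Figure D1:**
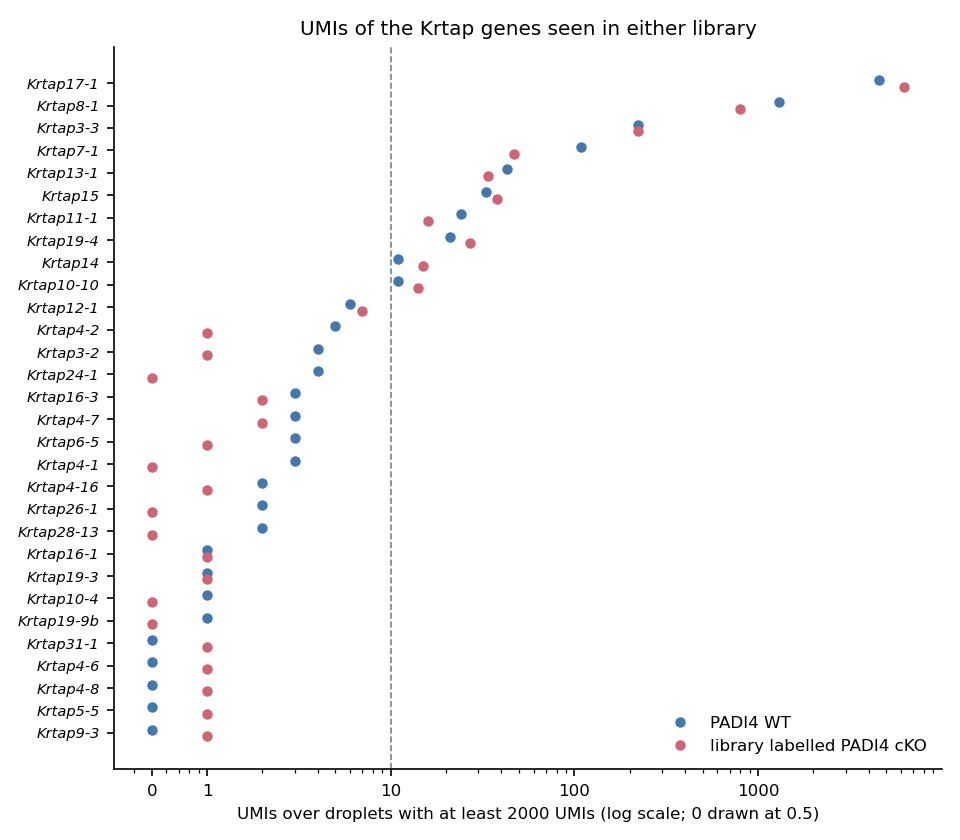
UMIs of each Krtap gene with at least 1 UMI (logarithmic axis) in droplets with at least 2000 UMIs, one point per library, with a count of 0 drawn at 0.5 and the limit of 10 UMIs as a dashed line. Krtap17-1 and Krtap8-1 stand well above the other members in both libraries.

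Of the 47 members that were not detected, 20 had UMIs in 1 or both libraries, at most 6 in PADI4 WT and 7 in the library labelled PADI4 cKO, and added up to 41 and 22 UMIs. The other 27 were at 0 in both, which allows up to 0.0224 and 0.0223 CPM (3 UMIs). Among these 27 were all listed members of families 1, 2, 20, 21, 22, 27 and 29, numbered by the figure after Krtap. Of the 27 families in the list, 10 had a detected member, 1 each.

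By position (GRCm38, with GENCODE M21 gene models, in which all 57 were found), 24 members lay on chromosome 16 between bases 88610705 and 89571183, and 7 of them were detected. Another 23 lay on chromosome 11 between bases 99550130 and 99993994, where only Krtap3-3 and Krtap17-1 were detected, at its opposite ends. Chromosome 10 had 3 members and 1 detected gene, Krtap10-10, which lies within Tspear. None of the 5 members on chromosome 7 or the 2 on chromosome 1 was detected. A single exon made up 51 of the 57 genes, and 6 were overlapped by another gene. The UMIs of Krtap10-10 and Krtap12-1 (both within Tspear and on its strand) and of Krtap15 and Krtap14 are therefore uncertain. Krtap15 is overlapped on its own strand by 4930553J12Rik, and Krtap14 overlaps both of these on the opposite strand.

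Reads that match more than 1 gene are usually left uncounted, which bears on a family whose members share sequence. At least 1 stretch of 31 bases in the last 500 bases of the transcript was shared with another listed gene in 35 of the 57 members (61.4%). These were 3 of the 10 detected members and 32 of the 47 that were not detected. Most of the stretches were shared in only 3 of the 57 members, none of them detected. Krtap17-1 and Krtap8-1 shared no such stretch, whereas Krtap3-3 shared 23.2%, Krtap15 23.3% and Krtap19-4 2.92% of theirs. How far uncounted reads lowered the other members was not tested.

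The upstream sequence of 4 of the detected genes is shown because a TATA box close to the start was the feature that most KAP promoters had in common. Each line gives the 100 bases that precede the annotated start (RefSeq, GRCm38.p6), 5′ to 3′ on the strand of the gene, with TATAAA and TATATAA in capitals where they lie in it. The first lies at chr11:99993995-99994094 (minus strand), the second at chr16:89487953-89488052 (minus), the third at chr11:99550864-99550963 (minus) and the last at chr16:88728762-88728861 (plus).
Krtap17-1: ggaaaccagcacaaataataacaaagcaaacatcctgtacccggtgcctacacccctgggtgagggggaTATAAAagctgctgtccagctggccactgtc
Krtap8-1: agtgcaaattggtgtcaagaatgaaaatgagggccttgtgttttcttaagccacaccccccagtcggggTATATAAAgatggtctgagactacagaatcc
Krtap3-3: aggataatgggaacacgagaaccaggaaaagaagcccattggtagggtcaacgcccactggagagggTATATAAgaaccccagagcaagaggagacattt
Krtap13-1: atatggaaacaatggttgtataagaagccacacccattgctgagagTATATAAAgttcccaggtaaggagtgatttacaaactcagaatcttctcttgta

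A TATA box, the AT-rich element at which the transcription machinery can assemble, was common in the family. RefSeq promoters (250 bases before to 50 after the start) were matched for 51 of the 57 members and 8 of the 10 detected ones, and for 27025 genes in all. TATAAA on the strand of the gene, lying wholly within 45 to 16 bases before the start, was present in 32 of the 51 KAP promoters (62.7%). It was there in 3 of the 8 detected members and in 2.36% of all promoters. Either TATAAA or TATATAA, the latter added after the sequences had been seen and able to overlap the former, was present there in 36 of 51 (70.6%) and 5 of the 8 detected members, beside 2.82% of all. The boxes of Krtap17-1, Krtap8-1 and Krtap3-3 began 31, 31 and 33 bases before the start, and that of Krtap13-1 began 54 bases before it, outside that window.

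Other motifs were searched over all 300 bases on both strands. CTTTGA, the core of sites bound by the LEF/TCF factors, was present in 15 of 51 KAP promoters (29.4%) and in 16.2% of all. Of the sites known for HOX13 factors, TCGTAAA was present in 1 of the 51, beside 0.625% of all, and CAATAAA in 0 of the 51, beside 4.84% of all. These are letter matches and not measured sites.

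To place the genes in cells, the 8070 and 7393 cells were clustered without the Krtap genes, and clusters were named from marker lists, each name carrying "-like". The outer root sheath-like (ORS-like) class, the follicle's outer layer, comprised 5 clusters with 2274 and 2142 cells. The lower proximal cup-like (LPC-like) class had 967 and 1208, the germinative layer-like (GL-like) class 803 and 745, and the inner root sheath-like (IRS-like) class 715 and 549. The medulla-like (Med-like) class, the core of the shaft, was 1 cluster of 390 and 277 cells, and the hair shaft-like class, defined by hair keratins of cortex and cuticle, was 1 cluster of 291 and 221. The Med-like name rested on 5 markers (Mt4, Foxq1, Padi3, Msx1 and Msx2) against 4 of the germinative layer. The upper hair follicle-like (uHF-like) class was 1 cluster of 122 and 214 cells. Its name rested on 4 markers (Lrig1, Plet1, Cst6 and Gata6) against 3 of the outer root sheath (Sox9, Krt15 and Nfatc1). Another 8 clusters stayed unnamed.

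Most KAP transcripts lay outside the class richest in hair keratins. ORS-like cells held 52.3% of the KAP UMIs of all cells kept in PADI4 WT and 58.1% in the library labelled PADI4 cKO. Med-like cells held 19.3% and 9.34%. Hair shaft-like cells held 2.67% and 2.28%. Summed KAP levels were 103.5 and 138.4 CPM in ORS-like, 170.4 and 128.7 in Med-like, 250.4 and 183.8 in uHF-like and 35.5 and 41.7 CPM in hair shaft-like cells. The family was thus split between classes according to the member.

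At least 1 KAP UMI was found in 34.7% and 41.5% of ORS-like cells, 59.2% and 53.4% of Med-like cells and 31.3% and 34.4% of hair shaft-like cells. Cells differ in depth, and with every cell thinned to 2000 UMIs these shares were 14.2% and 16.9%, 23.6% and 18.1%, and 5.84% and 8.14%. Med-like cells remained the more often positive of these classes, which do not include uHF-like cells, in both libraries. In the library labelled PADI4 cKO the margin over ORS-like cells was small (18.1% against 16.9%).

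**Figure D2:**
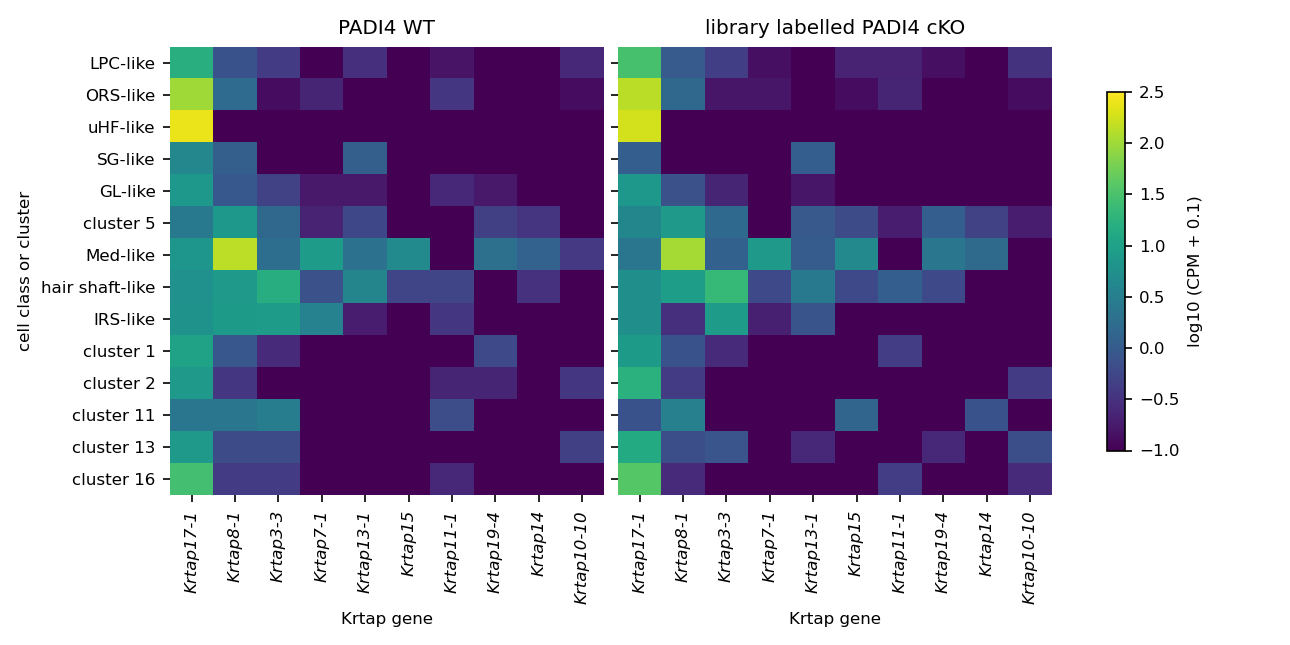
Level of each detected Krtap gene (columns) in each class or unnamed cluster of at least 50 cells (lines from top to bottom), 1 panel per library, with log10 of CPM plus a small constant on the colour scale. Krtap17-1 is highest in uHF-like and ORS-like cells, Krtap8-1 in Med-like cells and Krtap3-3 in hair shaft-like cells.

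Krtap17-1 (ENSMUSG00000078252, chr11:99993234-99993994, minus strand) was an ORS-like and uHF-like transcript in these cells, and low in the Med-like and hair shaft-like classes. ORS-like cells had 3161 UMIs in the PADI4 WT library (101.3 CPM, 97.8 to 104.9) and 4190 in the library labelled PADI4 cKO (136.6 CPM, 132.5 to 140.8), 72.0% and 68.6% of all its UMIs. uHF-like cells had 248.7 CPM (221.3 to 278.6) and 183.4 CPM (167.0 to 200.9). The intervals of the 2 libraries did not overlap in either class, and the libraries were in opposite order.

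LPC-like cells had a lower level, 15.3 and 30.1 CPM. GL-like cells had 7.25 and 7.17 CPM, IRS-like cells 6.14 and 5.48, Med-like cells 6.87 and 2.26, and hair shaft-like cells 5.81 and 5.49. Free RNA sets a floor under such values. Collagen UMIs in empty droplets and in epithelial cells put the level that free RNA could give Krtap17-1 at no more than 2.76 CPM in the PADI4 WT library and 3.94 CPM in the other. Fibroblast-like cells, which should lack the gene, had 1 UMI in 49 cells (2.04% positive, median depth 13757 UMIs) and 2 UMIs in 27 cells (7.41%, 16894). Med-like cells of the library labelled PADI4 cKO were below that limit, and ORS-like, uHF-like and LPC-like cells of both libraries were well above it. The Med-like value of PADI4 WT came from 48 UMIs in 11 cells, up to 16 in 1 cell. Its 94 cells with Xist only had 0 of them and its 238 cells with Y-linked UMIs only had 4 (0.951 CPM), so that most lay in cells with both marks or neither.

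Within the ORS-like class, Krtap17-1 was concentrated in cluster 17, which carried all 5 ORS markers (Sox9, Krt15, Tbx1, Nfatc1 and Lhx2). Cluster 17 had 442.8 CPM (419.8 to 466.8) in the PADI4 WT library and 644.8 CPM (614.5 to 676.2) in the library labelled PADI4 cKO, and 57.7% and 65.2% of its cells had a UMI. The next clusters were 18 with 107.1 and 130.3 CPM, 9 with 87.9 and 116.7, 7 with 61.9 and 93.3, and 6 with 39.0 and 57.6. This order was the same in both libraries, and the intervals of cluster 17 did not reach those of any other ORS-like cluster. Thinned to 2000 UMIs, 38.7% and 46.8% of cluster 17 cells had a UMI, although its cells were shallow (median 7947 and 8984 UMIs).

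**Figure D3:**
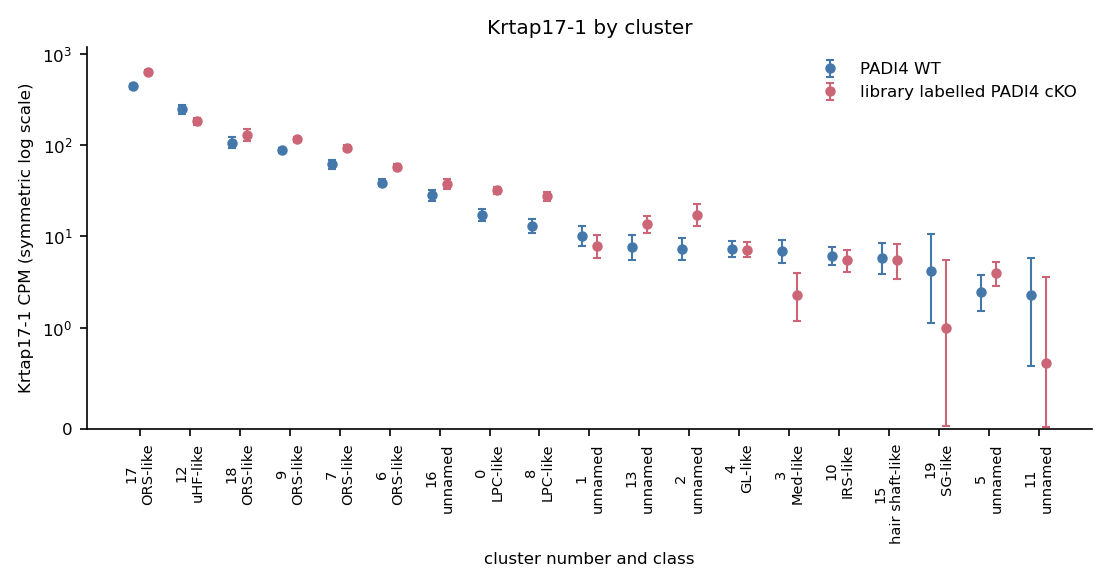
Krtap17-1 level in CPM (symmetric log axis) in each epithelial cluster with at least 50 cells in both libraries, ordered by the PADI4 WT level, one point per library with its 95% Poisson interval (counting error only). Cluster 17 lies at 442.8 and 644.8 CPM, above every other cluster drawn.

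The signal was spread over many cells. In cluster 17, 206 and 174 cells were positive with a median of 5 UMIs each, 52 and 62 of them had 10 or more, and the highest cell had 36 and 78. The 10 richest cells held 17.7% and 27.9% of the cluster's Krtap17-1 UMIs. In the uHF-like class the 10 richest held 54.2% of 299 UMIs and 36.5% of 460, so its level rested on fewer cells. The nearest KAP gene on the list, Krtap16-1, had 1 UMI in the cells of each library and 0 in ORS-like cells. The hair keratin gene Krt33a had 78 and 38 UMIs, of which 12 and 6 were in ORS-like cells.

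Across the 21 epithelial clusters, the genes outside the family whose log2(CPM + 1) followed summed KAP expression best were Abat (Pearson r = 0.89), which breaks down GABA, Hip1 (0.85), an endocytic adaptor, Dmxl2 (0.84), Chic1 (0.84) and Col4a4 (0.82). Tmem63a (0.82), Tmsb15b1 (0.82), Dis3l2 (0.82), Col4a3 (0.81) and Zer1 (0.80) followed. Col4a3 and Col4a4 encode chains of basement membrane collagen. All 10 were highest in cluster 17, and the 21 points share the same 2 libraries, so that r describes this 1 pattern.

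Krtap8-1 (ENSMUSG00000059632, chr16:89487379-89487952, minus strand) marked the Med-like cells. It had 1001 UMIs there in the PADI4 WT library (143.3 CPM, 134.6 to 152.5) and 572 in the library labelled PADI4 cKO (107.8 CPM, 99.1 to 117.0), 77.9% and 72.9% of all its UMIs. It was found in 53.6% of Med-like cells (48.5 to 58.6) and in 46.6% (40.6 to 52.6), or 20.3% and 16.6% when thinned to 2000 UMIs. The library labelled PADI4 cKO had the lower level, and the shares of positive cells had overlapping intervals.

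Elsewhere Krtap8-1 was low. Hair shaft-like cells had 7.75 and 8.99 CPM, the unnamed cluster 5, with 4 Med markers and 4 GL markers, had 7.32 and 7.76, and ORS-like cells had 1.57 and 1.40. Free RNA could give at most 1.49 and 0.406 CPM, and fibroblast-like cells had 0 UMIs. Up to 39 UMIs were found in a single Med-like cell of each library, and 31 and 14 Med-like cells had 10 or more.

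In IRS-like cells, Krtap8-1 had 94 UMIs in PADI4 WT and 2 in the other library. Of the 94, 62 and 26 were in 2 cells, with 20844 and 7818 UMIs in total, which also held 24 and 17 UMIs of Krtap7-1, 63 and 25 of the sheath keratin Krt73, 35 and 26 of Mt4 and 16 and 9 of Krt35. Neither was called a doublet. The IRS-like value of Krtap8-1 in the PADI4 WT library therefore rested on those 2 cells, and without them 6 UMIs remained.

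Of the low members, 4 had more UMIs in Med-like cells than in any other class, on few UMIs. Krtap7-1 had 57 of 109 and 41 of 47 UMIs there (8.16 and 7.73 CPM), in 28 and 17 cells. Krtap15 had 31 and 23 UMIs (4.44 and 4.33 CPM), in 14 and 10 cells. Krtap19-4 had 13 and 12 UMIs there and Krtap14 had 8 and 8. Cluster 5 held 3 and 11 UMIs of Krtap19-4 and 2 and 4 of Krtap14.

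Krtap7-1 was found together with Krtap8-1 in both libraries, and for the other low members the intervals were wide. Of the Krtap7-1-positive cells, 23 of 28 (82.1%, 63.1 to 93.9) in the PADI4 WT library also had Krtap8-1, beside 51.4% of the other Med-like cells, and 16 of 17 (94.1%, 71.3 to 99.9) beside 43.5% in the other library. Of the Krtap15-positive cells, 10 of 14 (71.4%, 41.9 to 91.6) beside 52.9% and 9 of 10 (90.0%, 55.5 to 99.7) beside 44.9% had it, the first interval covering the share of the other cells. Of the Krtap19-4-positive cells, 9 of 11 (81.8%, 48.2 to 97.7) beside 52.8% and 6 of 12 (interval 21.1 to 78.9%) beside 46.4% had it. The Krtap13-1-positive cells had it in 5 of 10 beside 53.7% and 2 of 3 beside 46.4%, and the Krtap3-3-positive cells in 7 of 11 beside 53.3% and 3 of 6 beside 46.5%. Krtap7-1-positive cells were not deeper than the other cells, with medians of 13669 against 15517 UMIs in PADI4 WT and of 17815 against 17858 in the library labelled PADI4 cKO. Krtap15-positive cells were deeper, with 18536 against 15131 and 20023 against 17815 UMIs. Cells are not replicates, and no test was made of these shares.

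Krtap3-3 (ENSMUSG00000069722, chr11:99550130-99550865, minus strand) was the member of the hair shaft-like and IRS-like cells. Hair shaft-like cells had 71 UMIs (15.3 CPM, 11.9 to 19.3) in the PADI4 WT library and 88 (22.0 CPM, 17.6 to 27.1) in the library labelled PADI4 cKO, in 19.6% and 24.4% of cells. IRS-like cells had 95 and 81 (8.11 and 8.21 CPM), in 9.09% and 10.2% of cells. Krtap3-3 was thus at similar levels in both libraries in IRS-like cells. Of the Krtap3-3-positive hair shaft-like cells, 5 of 57 (8.77%) beside 5.56% of the others also held Krtap8-1 in PADI4 WT, and 3 of 54 (5.56%) beside 7.19% in the other library.

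The remaining detected members were scattered. Krtap13-1 had 18 and 10 UMIs in hair shaft-like and 14 and 5 in Med-like cells. The library labelled PADI4 cKO also had 9 in cluster 5 and 7 in IRS-like cells. Krtap11-1 had 8 and 4 UMIs in ORS-like cells (0.256 and 0.130 CPM) and 2 and 4 in hair shaft-like cells (0.431 and 0.999 CPM). Free RNA could give Krtap11-1 at most 0.140 CPM in PADI4 WT and 0.00991 CPM in the other library. Over all PADI4 WT cells it was at 0.148 CPM (0.0891 to 0.231), near that limit, so its place in that library is uncertain. Krtap10-10 had 3 and 6 in LPC-like cells (0.154 and 0.230 CPM) and 2 and 4 in cluster 13 (0.362 and 0.588 CPM). None of them had most of its UMIs in 1 class in either library.

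The cells of the Med-like and hair shaft-like clusters were then ordered by the share of their UMIs from hair shaft keratins and divided into 5 bins, a range and not a set of cell types, in which the Krtap genes took no part. From the lowest bin to the highest, Krtap8-1 was at 185.2, 90.9, 69.9, 55.6 and 12.7 CPM in the PADI4 WT library and at 129.2, 79.0, 79.6, 24.6 and 21.8 CPM in the library labelled PADI4 cKO. Krtap3-3 was higher in the last 2 bins, with 2.93, 2.77, 5.83, 13.4 and 13.2 CPM and with 5.44, 4.45, 1.84, 12.3 and 28.9 CPM. Med-like cells made up 79.5% and 65.0% of the lowest bin and 4.58% and 9.62% of the highest, so that the order of bins and the 2 classes overlap. Krtap7-1 was at 13.5 CPM in the lowest and 0.506 CPM in the highest bin of PADI4 WT. In the library labelled PADI4 cKO both of these bins had 12 UMIs (8.16 CPM, 4.21 to 14.2, and 7.08 CPM, 3.66 to 12.4), so that no such order was seen there.

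**Figure D4:**
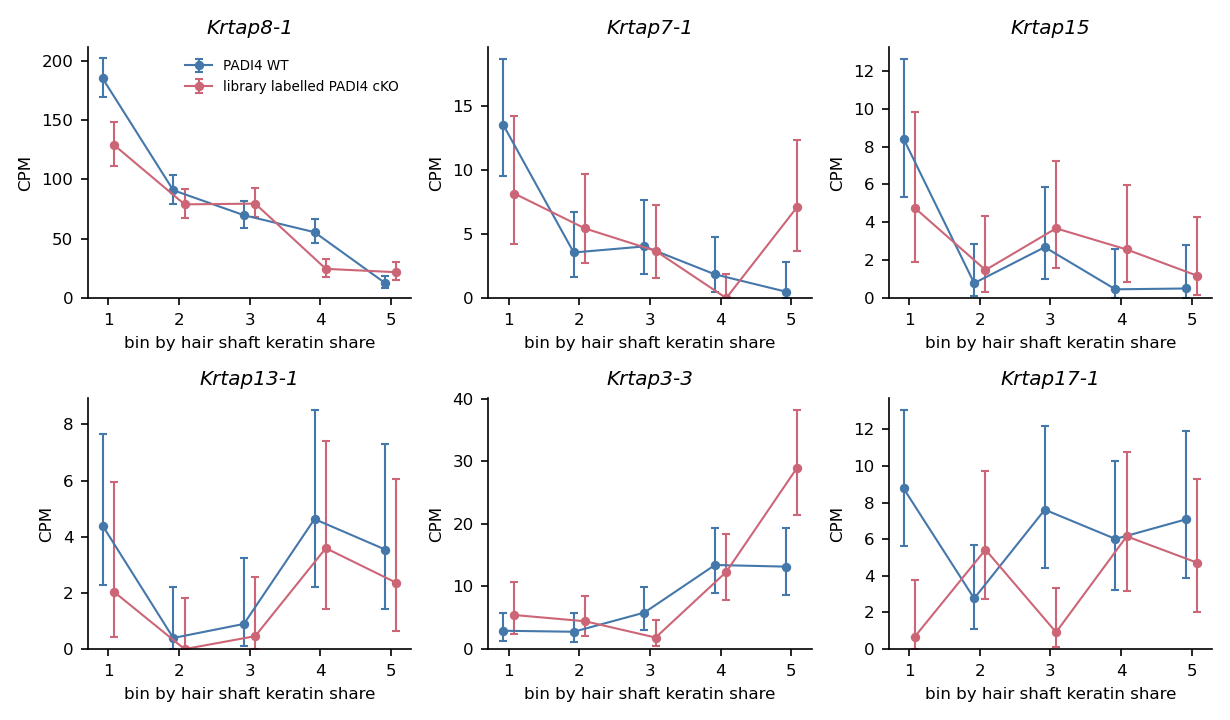
Levels of 6 Krtap genes in CPM (axes from 0, with a scale of their own) in 5 bins of Med-like and hair shaft-like cells ordered by their share of UMIs from hair shaft keratins (lowest at the left), one line per library with 95% Poisson intervals. Krtap8-1 is highest in the first bin and Krtap3-3 is highest in the last 2 bins of each library.

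The filament partners of the KAPs were placed differently. Of 14 listed hair shaft keratins, 7 had at least 10 UMIs in each library, and the hair shaft-like class was the highest for 5 of the 7 in the PADI4 WT library and 6 of the 7 in the library labelled PADI4 cKO. Most of these keratins were also markers that named this class, so their place is a description only. Krt35, an early hair keratin of cortex and cuticle, had 3242 and 3217 CPM there and 708 and 893 CPM in Med-like cells. The list summed to 3447 and 3407 CPM in hair shaft-like cells, and all 57 KAP genes to 35.5 and 41.7 CPM. Krt31, a cortex keratin, had 112 UMIs in the PADI4 WT library, with the highest level in IRS-like cells (7.77 CPM), and 18 in the other.

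Of 9 listed regulators of the shaft, Hoxc13, a homeobox factor known to bind hair keratin and KAP promoters, was highest in hair shaft-like cells (667.5 and 649.2 CPM), and Lef1, the nuclear partner of beta-catenin in Wnt signalling, in Med-like cells (1882 and 1859 CPM). Prdm1, a transcriptional repressor, was the only one of the 9 with the order of Krtap17-1, highest in uHF-like (230.4 and 250.4 CPM) and next in ORS-like cells (78.5 and 98.2 CPM). Of 10 listed genes of sulfur handling and cross-linking, Tgm5, a transglutaminase, had that order too, with 111.5 and 110.4 CPM in uHF-like and 42.4 and 57.9 CPM in ORS-like cells. S100a3, a calcium-binding protein of the hair cuticle and a marker of that class, was highest in hair shaft-like cells (424.2 and 432.7 CPM). Padi3, the peptidylarginine deiminase of hair, had 24.2 and 12.6 CPM in Med-like cells, and cluster 16 of the library labelled PADI4 cKO was higher (18.9 CPM).

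The design sets the library labelled PADI4 cKO against PADI4 WT within each class. The median ratio of all genes lay between -0.026 and 0.032 (log2) in the classes and clusters in which a KAP gene was compared. A member was compared where it had at least 100 UMIs in a class over both libraries, which 13 pairs of gene and class met, in 12 of the 14 classes and clusters of 50 or more cells in each library. The log2 ratio of CPM was past 0.5 in size in 4 of the 13, all higher in the library labelled PADI4 cKO, which held for this clustering and UMI minimum, and neither at other resolutions nor with a minimum of 50 UMIs. They were Krtap17-1 in LPC-like cells, in cluster 2 and in cluster 13, and Krtap3-3 in hair shaft-like cells.

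In LPC-like cells Krtap17-1 had 298 and 785 UMIs, a log2 ratio of 0.97 (0.78 to 1.17), and 1 of 1 KAP gene compared was past 0.5 beside 3.97% of all genes compared. In cluster 2 the ratio was 1.22 (0.65 to 1.79), 1 of 1, beside 13.3% of all genes. In cluster 13 it was 0.83 (0.30 to 1.41), 1 of 1, beside 2.55%. Krtap3-3 in hair shaft-like cells had 0.52 (0.06 to 1.00), 1 of 1, beside 4.1%.

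At Leiden resolution 0.5, Krtap8-1 was below -0.5 in hair shaft-like cells (-1.54, on 134 and 39 UMIs). It was also below -0.5 in the cluster matched to cluster 5 (-0.83). That cluster then held 1060 and 658 Krtap8-1 UMIs and left no Med-like class. At resolution 2.0, Krtap8-1 was below -0.5 in hair shaft-like (-1.45, on 124 and 37 UMIs) and Med-like cells (-0.53). So was Krtap17-1 in cluster 1 (-0.53). The 2 PADI4 WT cells with 62 and 26 Krtap8-1 UMIs were classed as hair shaft-like at both resolutions. They held most of the PADI4 WT UMIs behind both hair shaft-like values, which therefore rested largely on these 2 cells. Of the pairs past 0.5 at the reported resolution, the LPC-like value was the steadiest, at 0.97 without doublet calls and 1.05 after subtracting free RNA. The cluster 13 value rested on few cells, with 42 UMIs in 12 cells and 93 UMIs in 15 cells, and without doublet calls 30 and 5 UMIs were left and the ratio turned to -2.71 (-4.55 to -1.44). In cluster 2, Krtap17-1 had 57 UMIs in 22 cells and 53 in 20. Its ratio was 1.25 without doublet calls, and after subtracting free RNA fewer than 100 UMIs were left (1.52, 0.83 to 2.20). At resolution 2.0 it had 17 and 4 UMIs there, too few to be compared, and the ratio was 0.57 (-1.58 to 2.06). Krtap3-3 in hair shaft-like cells had 0.45 (-0.04 to 0.95) without doublet calls.

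None of the other pairs in the count of 13 was past 0.5. In ORS-like cells Krtap17-1 had a log2 ratio of 0.43 (0.36 to 0.50), so that 0 of 1 was past 0.5 beside 4.68% of all genes, and in uHF-like cells it had -0.44 (-0.65 to -0.22), 0 of 1 beside 7.42%. Krtap8-1 in Med-like cells had -0.41 (-0.56 to -0.26), 0 of 1 beside 4.67%, and 0.08 in cluster 5, 0 of 1 beside 2.38%. Of the IRS-like genes, Krtap17-1 had -0.16 and Krtap3-3 0.02, 0 of 2 beside 3.26%. For Krtap17-1, the ratio was -0.02 in GL-like cells (0 of 1 beside 3.29%), -0.36 in cluster 1 (0 of 1 beside 4.64%) and 0.42 in cluster 16 (0 of 1 beside 3.49%). Of 9 classes and clusters in which it was compared, Krtap17-1 was higher in the library labelled PADI4 cKO in 5 and lower in 4. Within the ORS-like class the ratio was 0.56 in cluster 6, 0.59 in cluster 7, 0.41 in cluster 9, 0.54 in cluster 17 and 0.28 (-0.03 to 0.59) in cluster 18.

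Restricting the comparison to cells with Xist and no Y-linked UMI changed several of these values. In ORS-like cells, Krtap17-1 had 74.1 CPM in such cells of the PADI4 WT library, 108.0 CPM in its cells with Y-linked UMIs only, and the Xist-positive cells of the library labelled PADI4 cKO had 136.4 CPM. The log2 ratio between libraries was then 0.88 (0.76 to 1.00), and that between Xist and Y cells inside the PADI4 WT library was -0.54 (-0.67 to -0.42). The Xist and Y cells of that library were not spread alike over the ORS-like clusters, since cluster 17 made up 72 of 677 Xist cells and 231 of 1319 Y cells. Cluster by cluster, their log2 ratio was -0.93 (-1.29 to -0.59) in cluster 6, -0.13 (-0.58 to 0.28) in cluster 7, -0.15 (-0.40 to 0.08) in cluster 9, -0.42 (-0.65 to -0.21) in cluster 17 and 0.59 (0.15 to 1.03) in cluster 18. The ratio between the libraries among Xist cells was 1.30, 0.72, 0.53 and 0.93 in clusters 6, 7, 9 and 17 and -0.09 (-0.48 to 0.33) in cluster 18.

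The uHF-like ratio changed sign. Xist-positive uHF-like cells had 127.1 CPM in the PADI4 WT library and 183.4 CPM in the other, a log2 ratio of 0.51 (0.07 to 1.02), and the PADI4 WT cells with Y-linked UMIs had 263.8 CPM. In LPC-like cells the 3 values were 14.6, 30.1 and 16.1 CPM, and the ratio stayed at 1.03 (0.70 to 1.41). In GL-like cells they were 3.49, 7.19 and 5.66 CPM, and the ratio became 1.00 (0.21 to 2.0). In clusters 2 and 13 the PADI4 WT library had only 1 and 2 UMIs in Xist cells against 53 and 93 in the other, with ratios of 2.51 (0.54 to 8.41) and 2.92 (1.34 to 6.30). Across the 9 classes and clusters, Krtap17-1 was higher in Xist-positive cells of the library labelled PADI4 cKO in 9, with an interval above 0 in 6. These 6 include clusters 2 and 13, with those few PADI4 WT UMIs. Over all cells of cluster 13, only 30 and 5 UMIs were left without doublet calls, and the ratio was -2.71. Inside the PADI4 WT library it was lower in Xist than in Y cells in 7 of the 9, with an interval below 0 in 2, and the interval was above 0 in 1.

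Krtap8-1 in Med-like cells no longer differed beyond counting error, with 112.6 CPM in Xist-positive PADI4 WT cells and 107.8 CPM in the library labelled PADI4 cKO (log2 ratio -0.07, -0.31 to 0.19). The PADI4 WT cells with Y-linked UMIs had 143.3 CPM, and the Xist cells of that library were lower than these by a log2 ratio of -0.34 (-0.60 to -0.10). Krtap3-3 in hair shaft-like cells had 0.28 (-0.39 to 1.05). In IRS-like cells Krtap3-3 had 3.81 and 8.26 CPM, a ratio of 1.06 (0.20 to 2.17). Between the libraries, the Xist cells compared carry the same sex mark, and genotype, mouse and library cannot be told apart. Inside the PADI4 WT library, sex and mouse cannot be told apart.

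**Figure D5:**
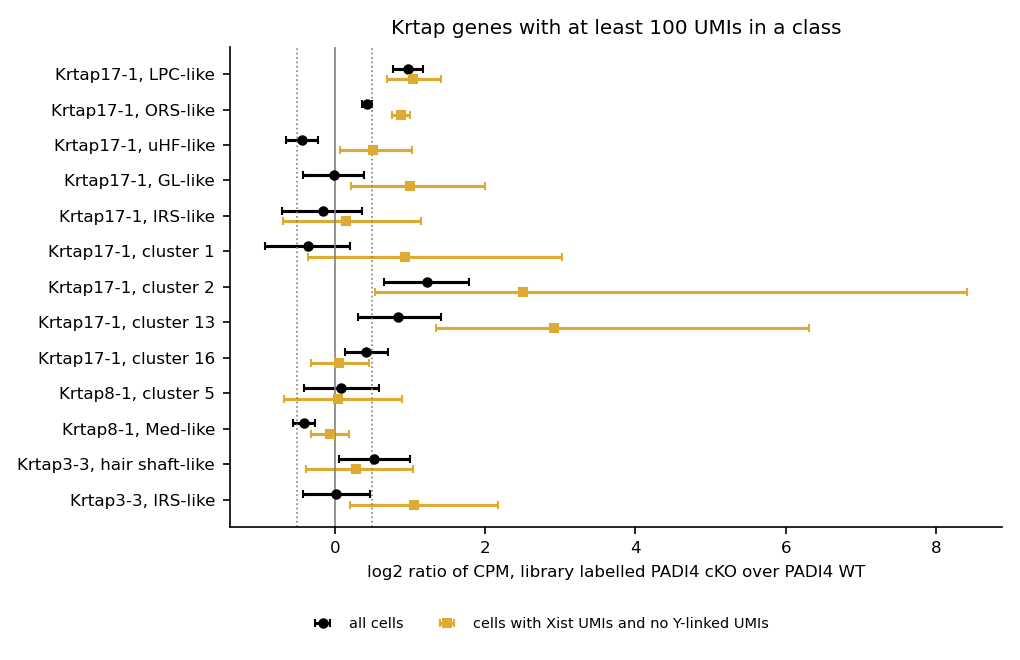
Log2 ratio of CPM, library labelled PADI4 cKO over PADI4 WT, for the 13 pairs of Krtap gene and class compared, with 95% intervals (counting error only) and lines at 0 and at 0.5 in size. Black circles are all cells and yellow squares are cells with Xist and no Y-linked UMIs. Over all cells Krtap17-1 lies above 0 in ORS-like and LPC-like cells and below 0 in uHF-like cells, where the square lies above 0.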

How the data were processed

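Tissue, sorting and genotypes are as given above. The deposited files hold raw UMI counts per gene and droplet, which the authors made with Cell Ranger 7.1.0 (version in the file header) on mm10, unfiltered for empty droplets. Whether intronic reads were counted is not given in the sources used here. UMIs at transcript ends count molecules and were not divided by gene length.

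Cells had at least 2000 UMIs and passed the stated limits of the study on mitochondrial and ribosomal content. Doublets were scored with Scrublet in Scanpy 1.11.5 at the threshold found for the library labelled PADI4 cKO (0.187), since that found for PADI4 WT (0.602) called only 2 cells. The 331 and 321 calls (4.10% and 4.34%) were kept in the main values. The libraries were clustered together on 1000 variable genes without Krtap, Padi and cell cycle genes, with cell cycle scores regressed out (50 components, 15 neighbours, Leiden resolution 1.0), giving 23 clusters. A cluster took a name when at least 3 markers of 1 list reached 5 CPM and 1.5 times their level outside the cluster, provided that no other list had as many and that none had more among the top 10 genes by fold. Names rebuilt in this way may differ from those of the study.

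UMIs were summed per class and library. Intervals are exact (Poisson for levels, Clopper-Pearson for shares, conditional binomial for ratios), with 0.5 added to UMIs for ratios. Cells were thinned to 2000 UMIs for shares. The free RNA limit came from Col1a1, Col1a2 and Col3a1 in epithelial cells and in droplets under 100 UMIs. Genes named were the detected members, the 3 on either side of the limit by summed UMIs, with ties, the 12 with the most UMIs and the 10 with the highest correlation. The members, the gene lists (hair shaft keratins, shaft regulators, sulfur and crosslink partners) and the threshold of 0.5, taken from the study, were chosen with earlier results of these data known. Protein composition was not analysed here.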

Additional observations from a re-analysis of the deposited data

Results flagged for a closer look

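The log2 ratio of Krtap17-1, library labelled PADI4 cKO over PADI4 WT, had opposite signs in classes whose intervals left out 0: -0.44 (-0.65 to -0.22) in uHF-like cells, and 0.43 (0.36 to 0.50) in ORS-like and 0.97 (0.78 to 1.17) in LPC-like cells. The difference between classes was not tested, and among cells with Xist only the uHF-like ratio was 0.51.

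Within the PADI4 WT library, ORS-like cells with Xist only were lower in Krtap17-1 than those with Y-linked UMIs only by a log2 ratio of -0.54 (-0.67 to -0.42). This did not hold in every cluster: the ratio was 0.59 (0.15 to 1.03) in cluster 18, the intervals of clusters 7 and 9 included 0, and cluster 17, the richest in Krtap17-1, made up 72 of 677 Xist and 231 of 1319 Y cells. The number of mice behind each set of cells is not given in the sources used here.

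Empty droplets (under 100 UMIs) of the PADI4 WT library held some members at higher levels than its cells did. Krtap8-1 was at 19.2 CPM (15.9 to 23.0) there and at 10.0 CPM in cells, and Krtap7-1 at 3.12 CPM (1.88 to 4.87) and 0.833 CPM. Krtap11-1 was at 1.80 CPM (0.901 to 3.23) in empty droplets and 0.148 CPM in cells, and Krtap14 at 0.656 CPM (0.179 to 1.68) and 0.0857 CPM. In the library labelled PADI4 cKO, Krtap8-1 was at 5.31 CPM in empty droplets and 6.03 CPM in cells. The source of these UMIs was not tested.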

How the results depend on the processing

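No paired analysis was possible because each genotype has 1 library and no replicate numbers. The count of 10 detected genes stayed within 1.5 times under each droplet limit, UMI limit and correction run. That band is wide enough for members near the limit to drop out. The nearest were Krtap11-1 (24 and 16 UMIs), Krtap14 (11 and 15) and Krtap10-10 (11 and 14). Of 85 log2 ratios in a tally of the alternatives, 79 kept their sign. That tally did not cover every recomputed ratio given here. Krtap17-1 also turned sign among Xist-only cells in uHF-like (0.51) and GL-like cells (1.00), and in cluster 13 without doublet calls (-2.71). Krtap8-1 turned sign in cluster 5 at resolution 0.5 (-0.83). Where a value moved, the cause was not tested unless named.

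The share of KAP UMIs in ORS-like cells (PADI4 WT, then the library labelled PADI4 cKO) was 54.7% and 63.9% at Leiden resolution 0.5, 46.2% and 52.4% with Krtap genes allowed in the clustering, 55.6% and 61.0% without doublet calls, 55.5% and 61.1% after subtracting free RNA and 47.0% and 50.9% in cells with at least 4000 UMIs, and 60.6% in the latter library at resolution 2.0. The ORS-like level was 117.1 and 146.1 CPM at resolution 0.5, 119.4 and 162.2 with Krtap genes allowed, 98.4 and 133.8 after subtracting free RNA and 111.7 and 144.4 in cells with at least 4000 UMIs. The Med-like share was 20.3% and 10.5% with Krtap genes allowed and 20.5% and 10.5% in cells with at least 4000 UMIs, and in PADI4 WT 17.3% without doublet calls and 20.9% after subtracting free RNA. The Med-like level was 144.7 and 101.3 CPM at resolution 2.0, 141.1 and 95.5 with Krtap genes allowed and 142.0 and 98.4 in cells with at least 4000 UMIs. Thinning to 2000 UMIs, which lowers depth by construction, gave KAP-positive shares of 14.2% and 16.9% in ORS-like and 23.6% and 18.1% in Med-like cells.

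The log2 ratio of summed KAP CPM in ORS-like cells (0.42) was 0.32 at resolution 0.5, 0.33 thinned and 0.87 in Xist-only cells. In LPC-like cells (0.88) it was 1.15 after subtracting free RNA. In uHF-like cells (-0.45) it was -0.23 thinned and 0.52 in Xist-only cells, and in Med-like cells (-0.40) -0.057 in Xist-only cells. In hair shaft-like cells (0.23) it was -0.64 at resolution 0.5, -0.61 at 2.0 and 0.55 thinned, with Krtap8-1 there at -1.54 and -1.45 at the first 2. In IRS-like cells (-0.84) it was -0.035 at resolution 0.5, 0.027 at 2.0, 0.69 in Xist-only cells, -1.50 thinned and -0.017 without the 2 cells rich in Krtap8-1, an alternative chosen after seeing the data. Those 2 cells were classed as hair shaft-like at resolutions 0.5 and 2.0, where they held most of the PADI4 WT Krtap8-1 UMIs of that class.

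The number of comparisons past 0.5 (4) was 2 without doublet calls, 2 after subtracting free RNA and 0 in thinned cells, where fewer genes reached 100 UMIs. Krtap17-1 in LPC-like cells stayed past 0.5 in the first 2 of these. Without doublet calls, Krtap3-3 in hair shaft-like cells (0.45) and Krtap17-1 in cluster 13 (-2.71, on 35 UMIs) were lost. After subtracting free RNA, Krtap17-1 in clusters 2 and 13 (1.52 and 0.99) fell short of 100 UMIs. At resolutions 0.5 and 2.0 it was 4 and 5, of which 2 and 3 were lower in the library labelled PADI4 cKO. The lower ones included Krtap8-1 in hair shaft-like cells at both resolutions, where 2 cells held most of its PADI4 WT UMIs. The number past 0.5 was 7 with a minimum of 50 UMIs and 1 with 500. The minimum of 50 added Krtap17-1 in Med-like cells (-1.56, 48 and 12 UMIs) and in cluster 5 (0.65) and Krtap8-1 in IRS-like cells (94 and 2 UMIs). The share of members with a shared transcript end was 22.8% over the last 300 bases.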
